A study of Mus musculus with 9 samples.

Results

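The 78 mitochondrial ribosomal protein genes described here are the protein-coding genes of the deposited table whose symbols begin with Mrpl or Mrps followed by a number. They were found by symbol among 55367 genes, with no use of their expression. The RNA came from whole osteosarcoma tumors of genetically engineered mice. The tumors F187, F325, F331 and F368 are the 4 called p53 driven, which carry Col2.3-Cre and 1 floxed Trp53 allele, and M351, M408, M9, M624 and M664 are the 5 called Myc knockin, which carry in addition a Lox-Stop-Lox c-Myc T58A allele, so that both groups share the Cre and the floxed Trp53. Col2.3 is a collagen promoter active in osteoblasts, and the genes recombine only where it has been on, whereas the whole tumor also holds blood, vessel, muscle and immune cells. In bulk tumors fewer cells of a type and less RNA per cell cannot be told apart. Ages and sexes were not used, and the columns of the table were tied to the groups by their names alone, which for M351, M9 and M664 means the letter M.

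The mitochondrial ribosome makes the few proteins that mitochondrial DNA encodes, all of them subunits of the respiratory chain and ATP synthase. Its RNAs come from mitochondrial DNA, but every one of its proteins is encoded in the nucleus, made in the cytosol and imported. Mrpl symbols name proteins of the large subunit and Mrps symbols those of the small subunit, and many have a counterpart in the bacterial ribosome, while the rest are found only in mitochondria. Myc is known to raise the transcription of genes for ribosomes and mitochondria, and the comparison asks how this gene family stood in tumors with and without the Myc allele.

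The libraries differed in depth and in content. Total counts ranged from 2716322 in M351 to 17073285 in M624. A group of 12 satellite-repeat genes took 44.3% of the counts in F187, 67.9% in M351, 23.2% in M408 and 81.0% in M9, and at most 0.0242% in the other 5 libraries. Rn7sk, which is not polyadenylated, was at 3.47 CPM (counts scaled by the TMM-normalized library size) in M624 and 6.35 in M664, against at least 6545 in each of the other 7. Whether the libraries of M624 and M664 were prepared in another way is not stated. Such a difference and one between the tumors cannot be told apart in the values of this pair. The 78 genes together held 1458 counts in M9, 2650 in M351 and 3267 in F187, between 8508 and 17682 in M408, F368, F331 and F325, and 72385 in M624 and 67355 in M664. In M9, 18 of the 78 genes had fewer than 10 counts, and the reads expected there from genomic background, estimated from chemosensory receptor genes, came to 20.9% of the family's counts, against 10.4% in M351, 5.34% in F187 and at most 0.438% elsewhere. All results were therefore computed over the 9 tumors and again without M624 and M664. The 2 comparisons share the same 4 control tumors. Myc itself had 46.2, 43.5, 67.1 and 60.4 CPM in F187, F325, F331 and F368, and 270, 520, 144, 1045 and 905 CPM in M351, M408, M9, M624 and M664.

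Summed over the 78 genes, the level was high in M624 and M664 and similar in the other 7 tumors. The sum was 1290, 1375, 1451 and 1176 CPM in F187, F325, F331 and F368. It was 1631 CPM in M351, 1558 in M408, 1162 in M9, 2758 in M624 and 2908 in M664. The groups overlapped, because M9 was the lowest of all 9 tumors. The Myc-knockin mean was 2003 ± 780 CPM (SD, n = 5) and the p53-driven mean 1323 ± 118 CPM (SD, n = 4), a ratio of 1.51. Without M624 and M664 the Myc-knockin mean was 1450 ± 252 CPM (SD, n = 3), or 1.096 times the p53-driven mean, while M624 and M664 together were at 2.14 times it. The scale matters for this order. Relative to the counts outside the satellite genes (CPM with no TMM factor), the sums were 1412 to 1937 in the p53-driven tumors and 3036, 2578, 2170, 4240 and 4271 in M351, M408, M9, M624 and M664, so that the groups no longer overlapped. On that scale the median gene tested was also higher in the Myc-knockin tumors, by 0.63 on the log2 scale. Genomic background was not subtracted there, and 20.9% of the family's counts in M9, the lowest of the 5, were expected from it. The separation on that scale is therefore uncertain. With TMM scaling and less that background, the Myc-knockin tumors other than M624 and M664 were at 1.004 times the p53-driven mean, and the pair at 2.17 times.

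**Figure D1:**
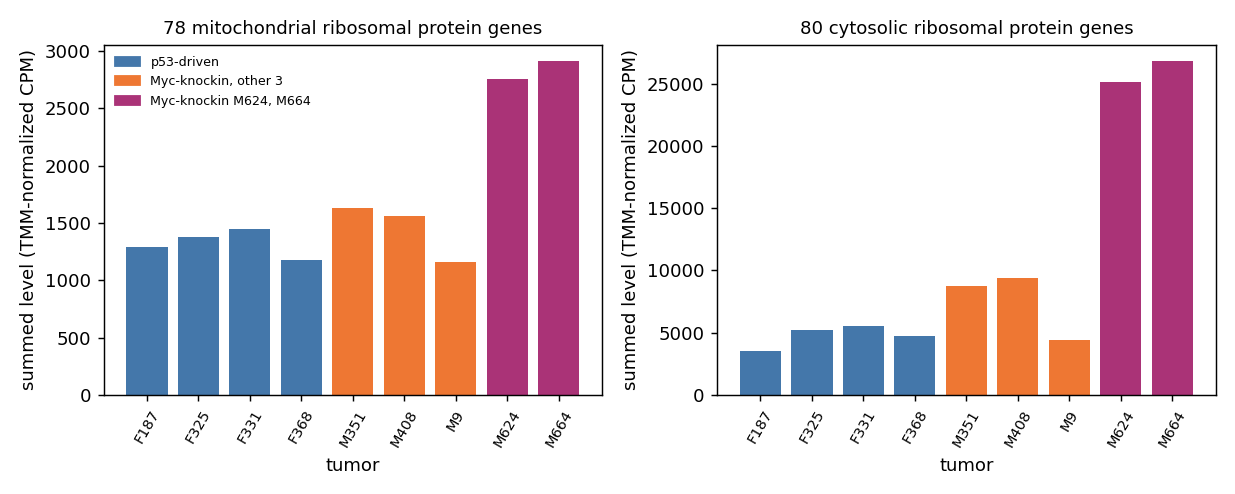
Bars give the summed TMM-normalized CPM of the 78 mitochondrial ribosomal protein genes (left) and of the 80 cytosolic ribosomal protein genes (right) in each tumor, colored by group, with both axes starting at 0. M624 and M664 stand at 2758 and 2908 CPM on the left and 25145 and 26788 CPM on the right, above every other tumor in both panels.

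No single gene of the family passed the test. Calls needed a fold change above 1.5 and, in the quasi-likelihood test of edgeR, a p below 0.05 after Benjamini-Hochberg adjustment over every gene tested. Where no other tool is named, a call is one by edgeR. Of the 77 members tested over the 9 tumors 0 were called, where 5.27% of all 15365 genes were. The smallest adjusted p was 0.0659, for Mrpl23, which passed the filter on low counts only with M624 and M664 included, and 0.0674, for Mrpl38, among the members tested with and without them. At an unadjusted p under 0.05, 24 members were higher in the Myc-knockin tumors, Mrpl23 among them, and 0 were lower (all genes: 14.9% higher and 11.8% lower). DESeq2 called 12 members higher, Mrpl23 among them (all genes: 10.1%). Limma-voom, run throughout with quality weights for each library, called 2, Mrps31 and the same Mrpl23 (all genes: 4.32%). Neither tool called a member lower. The count by edgeR rested on single libraries too, since 8 members were called higher without M9 (all genes: 6.03%) and 1 without M408 (all genes: 2.7%). Without M624 and M664, 75 members were tested and 0 were called, against 4.61% of 14308 genes, and the smallest adjusted p was 0.0693. There, 6 members were higher at an unadjusted p under 0.05 (all genes: 12.4%) and 2 were lower (all genes: 13.3%). DESeq2 and limma-voom each called Mrps22 and Mrps31 higher, and 5.97% and 6.70% of all genes respectively. These p-values measure the spread between the tumors of a group, and a p that misses the threshold does not show that the groups were alike.

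Most members leaned the same way over the 9 tumors, and fewer did without the pair. Over all 9 tumors 71 of 77 members had a log2 fold change above 0 (all genes: 56.2%), with a median of 0.69 where the median of all genes was 0.14. The 77 include Mrpl23 and Mrps36, both above 0, which passed the filter on low counts only with M624 and M664 included. The middle of the family lay between 0.40 and 0.91, the lower and upper quartiles, and 18 members were above 1, Mrpl23 among them. The median became 0.38 with limma-voom (all genes: -0.038) and 1.17 without the libraries rich in satellite counts (all genes: -0.003). With all genes of at least 1 count kept, it was 0.677, below the 0.969 of all genes. Without M624 and M664, 49 of 75 were above 0 (all genes: 53.7%), the median was 0.19 against 0.08 for all genes, the quartiles were -0.13 and 0.47, and 1 member was above 1. That direction rested on 1 library and on the scaling, since 33 of 75 were above 0 with a median of -0.033 when M408 was also left out, and 14 of 75 with a median of -0.40 by library size alone (all genes: -0.55). Of the 75 members tested in both comparisons, 21 were above 0 with the pair and below 0 without it, and 0 were the other way round. In 54 of the 77 members, or 70.1%, both M624 and M664 were above every other tumor, which held for 17.4% of all genes tested. Among the libraries with little satellite RNA, which leaves F325, F331 and F368 against M624 and M664, 38 of 77 members were called higher, Mrpl23 among them, and 0 lower. In that comparison 15.7% of all genes were called higher.

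**Figure D2:**
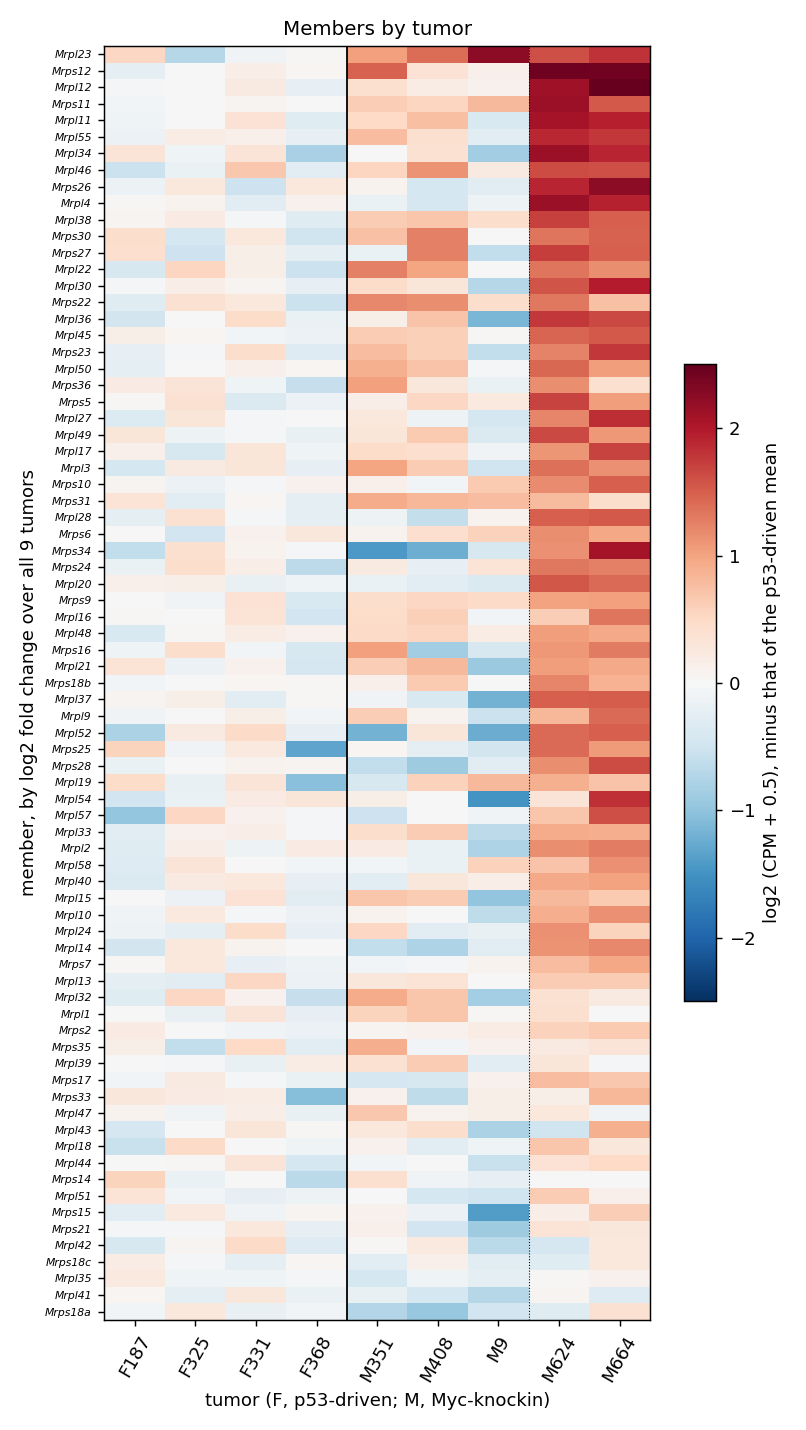
Each row is a member tested, in the order of its log2 fold change over the 9 tumors, and each column a tumor; the color is log2 of CPM plus 0.5, minus the same for the mean of the p53-driven tumors. The 2 columns at the right, M624 and M664, are red over most of the height, whereas M351, M408 and M9 hold red and blue rows in turn.

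Among members with a mean of at least 10 CPM, the 4 with the largest log2 fold change were Mrps12, Mrpl12, Mrps11 and Mrpl11. All 4 encode counterparts of bacterial ribosomal proteins. Mrps12 belongs to the decoding center of the small subunit and Mrps11 to the platform of that subunit, whereas Mrpl12 forms the flexible stalk of the large subunit that recruits translation factors and Mrpl11 sits at the base of that stalk. Their promoter windows, from 250 bases before to 50 bases after the annotated start, are shown because these members carried the largest differences; they are RefSeq sequences of GRCm38.p6, written 5′ to 3′ on the gene's strand, with the letters of motifs searched (given further on) in capitals. They lie at chr7:28741772-28742071 on the minus strand for Mrps12, and on the plus strand at chr11:120484387-120484686 for Mrpl12, chr7:78782881-78783180 for Mrps11 and chr19:4962056-4962355 for Mrpl11.
Mrps12: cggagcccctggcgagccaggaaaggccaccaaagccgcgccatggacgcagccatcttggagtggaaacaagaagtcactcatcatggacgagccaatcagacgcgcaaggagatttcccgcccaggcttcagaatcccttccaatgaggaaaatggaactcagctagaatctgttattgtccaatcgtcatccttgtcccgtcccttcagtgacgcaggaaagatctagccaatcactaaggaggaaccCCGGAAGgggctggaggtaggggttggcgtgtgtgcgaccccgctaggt
Mrpl12: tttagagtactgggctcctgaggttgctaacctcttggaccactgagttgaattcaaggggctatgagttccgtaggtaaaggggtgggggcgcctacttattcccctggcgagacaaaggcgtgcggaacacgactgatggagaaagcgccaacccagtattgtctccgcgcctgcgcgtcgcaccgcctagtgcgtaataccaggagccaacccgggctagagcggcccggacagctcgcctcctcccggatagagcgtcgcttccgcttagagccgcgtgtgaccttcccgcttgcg
Mrps11: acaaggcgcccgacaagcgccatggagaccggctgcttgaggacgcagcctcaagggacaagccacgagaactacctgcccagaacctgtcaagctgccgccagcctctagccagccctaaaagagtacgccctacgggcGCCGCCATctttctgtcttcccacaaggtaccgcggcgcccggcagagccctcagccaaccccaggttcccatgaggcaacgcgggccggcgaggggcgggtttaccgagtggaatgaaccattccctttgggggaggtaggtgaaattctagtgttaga
Mrpl11: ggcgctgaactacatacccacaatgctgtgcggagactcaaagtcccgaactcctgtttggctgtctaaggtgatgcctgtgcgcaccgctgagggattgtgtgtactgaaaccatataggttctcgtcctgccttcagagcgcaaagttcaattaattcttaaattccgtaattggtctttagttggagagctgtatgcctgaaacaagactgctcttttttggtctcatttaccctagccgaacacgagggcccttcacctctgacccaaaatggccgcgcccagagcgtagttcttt

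Mrps12 had 3.55, 4.36, 4.93 and 4.50 CPM in F187, F325, F331 and F368. In M351, M408, M9, M624 and M664 it had 12.9, 5.68, 4.78, 25.7 and 25.3 CPM. M624 and M664 were far above the rest, M351 stood between, and M9, on 6 counts, lay within the range of the controls. Its log2 fold change was 1.80 (SE 0.54, edgeR adjusted p = 0.0700) over all 9 tumors and 0.88 (SE 0.45, edgeR adjusted p = 0.246) without the pair.

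Mrpl12 was high in M624 and M664 alone. It had 24.9, 26.0, 30.3 and 22.2 CPM in F187, F325, F331 and F368, and 34.5, 29.3, 27.9, 114 and 168 CPM in M351, M408, M9, M624 and M664. The mean of the pair was 5.47 times the p53-driven mean, and that of the other 3 Myc-knockin tumors 1.18 times. The log2 fold change went from 1.55 (SE 0.56, edgeR adjusted p = 0.108) to 0.30 (SE 0.22, edgeR adjusted p = 0.414) without them. By limma-voom it was smaller with the pair, 0.58, and 0.39 without it.

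Mrps11 was higher in each tumor with the Myc allele. Its level was 6.32, 6.61, 7.01 and 6.56 CPM in the p53-driven tumors, and 10.5, 9.89, 11.95, 31.0 and 20.2 CPM in M351, M408, M9, M624 and M664. Each Myc-knockin tumor was above each p53-driven one, and the log2 fold change was 1.36 (SE 0.40, edgeR adjusted p = 0.0684), or 0.75 (SE 0.28, edgeR adjusted p = 0.139) without the pair. Mrps11 lies on chromosome 7 from 78783119 to 78792989, and 173 of its exon bases overlap Mrpl46, a large-subunit gene on the opposite strand. Mrpl46 had a log2 fold change of 1.21 (SE 0.44, edgeR adjusted p = 0.110), and how reads in the shared bases were assigned is not stated.

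Mrpl11 was likewise highest in M624 and M664, at a lower level than Mrpl12. It had 8.69, 9.33, 12.2 and 7.54 CPM in F187, F325, F331 and F368, and 13.5, 16.3, 7.17, 41.5 and 37.9 CPM in M351, M408, M9, M624 and M664. M9 was below all 4 p53-driven tumors, and the log2 fold change was 1.33 (SE 0.49, edgeR adjusted p = 0.113), or 0.48 (SE 0.35, edgeR adjusted p = 0.395) without the pair. Limma-voom gave 0.85 and 0.51.

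**Figure D3:**
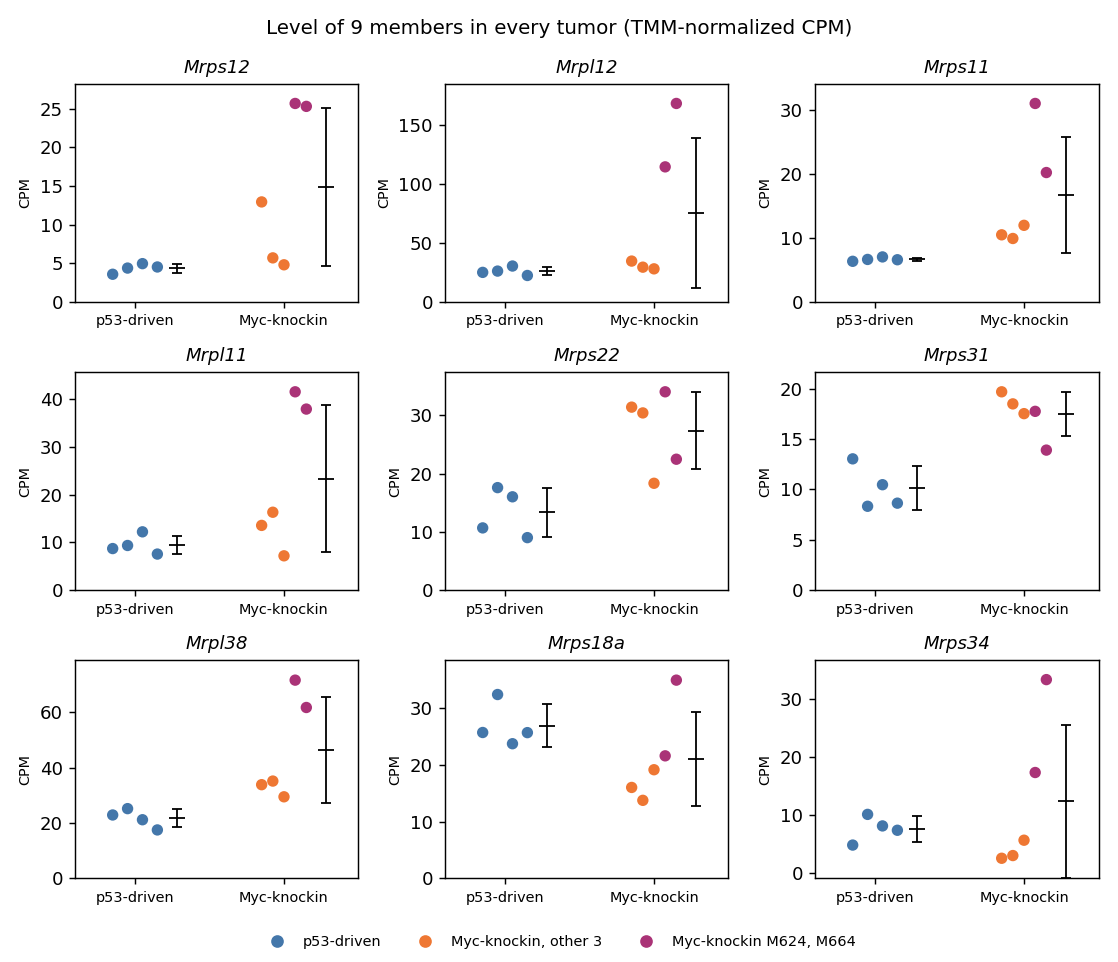
Points are the TMM-normalized CPM of 9 members in each tumor, and the bar beside them is the mean with 1 SD (n = 4 and n = 5). Mrps22, Mrps31, Mrps11 and Mrpl38 have every Myc-knockin point above every p53-driven point, while in Mrpl12, Mrpl11 and Mrps34 M624 and M664 carry the difference and the bar of Mrps34 reaches below 0.

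In the members whose log2 fold change differed most between the 2 comparisons, M624 and M664 were above every control and the means of the other 3 Myc-knockin tumors were between 0.486 and 1.18 times the p53-driven mean. These were Mrps34, Mrpl4, Mrps26, Mrpl12 and Mrps28. Mrps34, a mitochondria-specific protein of the small subunit, had 4.74, 10.03, 8.04 and 7.29 CPM in F187, F325, F331 and F368 and 2.46, 2.93, 5.58, 17.3 and 33.3 CPM in M351, M408, M9, M624 and M664. Its log2 fold change was 0.75 (SE 0.70) with the pair, -0.11 there by limma-voom, and -1.04 (SE 0.46, edgeR adjusted p = 0.192) without it. Of its 2064 exon bases 63.4% overlap Mapk8ip3 on the opposite strand and 37.0% overlap Nme3 on its own strand, which is listed at 0 in all 9 tumors, so its counts are uncertain.

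Mrpl4, which lines the wall of the exit tunnel of the large subunit, had 10.7 to 14.2 CPM in the p53-driven tumors, 11.7, 9.71 and 11.95 CPM in M351, M408 and M9, and 60.5 and 51.3 CPM in M624 and M664. Mrps26, a small-subunit protein found only in mitochondria, showed the same split, with 10.03 to 17.6 CPM in the p53-driven tumors, 15.4, 10.6 and 11.95 CPM in M351, M408 and M9, and 56.0 and 70.6 CPM in the pair. By edgeR both had a log2 fold change above 1 with the pair, 1.18 and 1.21, and one slightly below 0 without it, -0.19 and -0.16. By limma-voom Mrpl4 and Mrps26 were at 0.29 and 0.31 with the pair and at -0.145 and -0.019 without it. Mrpl34, a small protein of the large subunit, had 7.54 to 17.04 CPM in the p53-driven tumors, 13.5, 17.8 and 7.17 CPM in M351, M408 and M9, and 61.2 and 52.2 CPM in the pair. Its log2 fold change of 1.21 became 0.05, and by limma-voom 0.59 became 0.10.

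Mrps28, of the small subunit, was between 9.48 and 11.3 CPM in the p53-driven tumors. It was at 6.77, 5.49 and 8.76 CPM in M351, M408 and M9 and at 24.3 and 33.9 CPM in M624 and M664, so that the 3 tumors lay below all the controls and the pair above them. Its log2 fold change was 0.61 (SE 0.53) with the pair, -0.039 there by limma-voom, and -0.58 (SE 0.30, edgeR adjusted p = 0.246) without it.

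In a few members the 2 groups did not overlap. Over the 9 tumors every Myc-knockin tumor was above every p53-driven tumor in 7 members, Mrpl23, Mrpl38, Mrpl48, Mrps9, Mrps11, Mrps22 and Mrps31, or 7 of 77 where 5.41% of all genes did this; below every p53-driven tumor were 0 members (all genes: 7.54%). Without M624 and M664, 6 of 75 were apart and higher, the same genes but for Mrpl23, which was not tested there (all genes: 1437 of 14308, or 10%), and 2 were apart and lower, Mrps18a and Mrps28 (all genes: 12.8%). Genes apart over the 9 tumors stay apart when Myc-knockin tumors are left out on the same scale, so the second count adds no support to the first. Less the expected genomic background, 3 members were apart and higher in both comparisons, Mrpl38, Mrps11 and Mrps31 (all genes: 3.26% over the 9 tumors and 5.24% without the pair), and 5 were apart and lower without the pair (all genes: 16.9%). These genes were singled out after their values were seen.

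Mrps31 and Mrps22, small-subunit proteins found only in mitochondria, were high in more tumors than M624 and M664. Mrps31 had 13.0, 8.32, 10.5 and 8.63 CPM in F187, F325, F331 and F368 and 19.7, 18.5, 17.5, 17.8 and 13.9 CPM in M351, M408, M9, M624 and M664, with M351 highest. By edgeR the log2 fold change was 0.79 (SE 0.28, edgeR adjusted p = 0.105) over all 9 tumors and 0.95 (SE 0.26, edgeR adjusted p = 0.0693) without the pair. By DESeq2 its adjusted p was 0.0415 and 0.0314, and by limma-voom 0.0419 and 0.0370.

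Mrps22 had 10.7, 17.6, 16.0 and 8.996 CPM in F187, F325, F331 and F368 and 31.4, 30.4, 18.3, 34.0 and 22.5 CPM in M351, M408, M9, M624 and M664. M624 was highest, with M351 and M408 next, and M9, the lowest Myc-knockin tumor, was just above F325. Of the 23 reads in M9 5 were expected from genomic background, and without them M9 was at 14.4 CPM, under F325 and F331, so that the groups overlapped. Its log2 fold change was 1.04 (SE 0.32, edgeR adjusted p = 0.0726) over all 9 and 1.07 (SE 0.32, edgeR adjusted p = 0.0850) without the pair, and DESeq2 gave adjusted p of 0.0200 and 0.0430. Mrpl38, a large-subunit protein of the central protuberance, had 17.5 to 25.2 CPM in the p53-driven tumors and 33.9, 35.2, 29.5, 71.6 and 61.7 CPM in M351, M408, M9, M624 and M664. Its log2 fold change was 1.11 (SE 0.33, edgeR adjusted p = 0.0674), and 0.66 (SE 0.23, edgeR adjusted p = 0.116) without the pair. Mrps9 and Mrpl48 had log2 fold changes of 0.74 and 0.71 over the 9 tumors and 0.55 and 0.49 without the pair. In Mrps9 7.2 of the 38 reads in M9 were expected from genomic background, and in Mrpl48 10.1 of the 15 in M9 and 9.2 of the 24 in M351. Less that background, Mrps9 in M9 was at 24.6 CPM, under the 28.1 of F331, and Mrpl48 in M9 was at 3.87 CPM, under every p53-driven tumor, so that neither gene kept its groups apart.

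Mrpl23, a protein at the exit of the tunnel in the large subunit, had the largest log2 fold change of the family, 2.17 (SE 0.63, edgeR adjusted p = 0.0659), on very few reads. It passed the filter on low counts over the 9 tumors and not without M624 and M664, so its difference is given as a description and supports nothing about the family. It was counted 4, 5, 10 and 8 times in F187, F325, F331 and F368 and 4, 18, 8, 103 and 106 times in M351, M408, M9, M624 and M664. From genomic background alone 6.1 reads were expected in M9 and 5.5 in M351, more than the 4 counted there. A processed copy of the gene, Mrpl23-ps1, took more reads than the gene itself, 13, 87, 94 and 33 in the p53-driven tumors and 13, 59, 9, 833 and 789 in M351, M408, M9, M624 and M664, so that the split of reads between the copies is uncertain. The log2 fold change of Mrpl23-ps1 was 1.64 (edgeR adjusted p = 0.0880), and 0.60 (edgeR adjusted p = 0.334) without the pair.

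**Figure D4:**
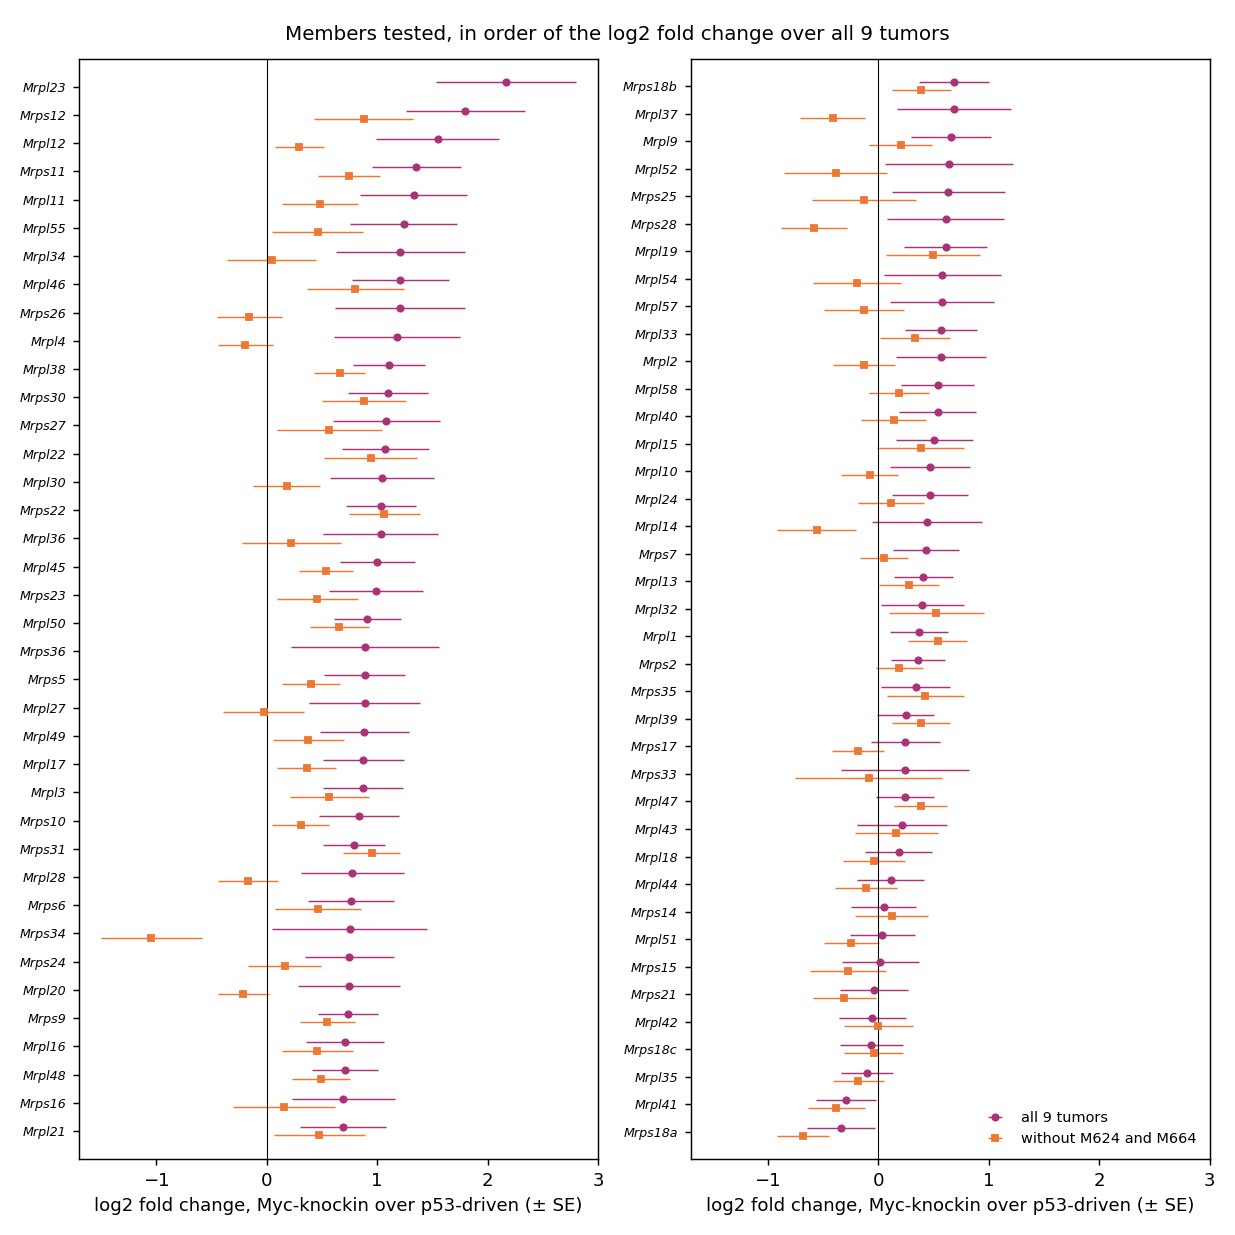
Log2 fold changes of Myc-knockin over p53-driven tumors with 1 SE, over all 9 tumors (circles) and without M624 and M664 (squares), for the 77 members tested. Of 75 members with both symbols, 65 have the circle to the right of the square, and Mrps22 and Mrps31 are among the 10 that do not.

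At the other end were Mrps18a, Mrpl41, Mrpl35, Mrps18c, Mrpl42 and Mrps21, the 6 members of at least 10 CPM with the smallest log2 fold change. Mrpl41 (-0.29), Mrpl35 (-0.10), Mrps18c (-0.06), Mrpl42 (-0.06) and Mrps21 (-0.04) had log2 fold changes close to 0 over the 9 tumors, and Mrps18c, Mrpl42 and Mrps21 were on the other side of 0 under several scalings. Mrps21, a short small-subunit protein, had 22.0 to 30.7 CPM in the p53-driven tumors and 27.7, 18.1, 13.5, 32.5 and 31.0 CPM in M351, M408, M9, M624 and M664. Mrpl41 had 20.9 and 15.8 CPM in M624 and M664, and Mrpl35 27.5 and 29.3 CPM, within the range of the p53-driven tumors for Mrpl35 in both and for Mrpl41 in M624.

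Mrps18a, Mrps18b and Mrps18c are 3 copies of 1 ancestral gene whose proteins occupy different places, Mrps18a in the large subunit in spite of its name and the others in the small subunit. Mrps18a had 25.7, 32.4, 23.7 and 25.7 CPM in F187, F325, F331 and F368 and 16.0, 13.7, 19.1, 21.6 and 34.9 CPM in M351, M408, M9, M624 and M664. The 3 Myc-knockin tumors outside the pair lay below all 4 controls, M624 just below them and M664 above them. For Mrps18a the log2 fold change was -0.34 (SE 0.31, edgeR adjusted p = 0.518) over the 9 tumors and -0.68 (SE 0.24, edgeR adjusted p = 0.115) without the pair. Mrps18b had 10.7 to 11.5 CPM in the p53-driven tumors and 12.3, 17.8, 11.2, 26.6 and 20.7 CPM in M351, M408, M9, M624 and M664, with a log2 fold change of 0.69 (SE 0.32). Mrps18c had 10.7 to 14.6 CPM in the p53-driven and 10.3 to 15.3 CPM in the Myc-knockin tumors. The log2 fold changes of the 3 paralogs ranged from -0.34 for Mrps18a to 0.69 for Mrps18b, and whether they differ from each other was not tested.

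Mrps30, a second protein named for the small subunit that sits in the large one, had 20.5, 11.05, 18.1 and 10.6 CPM in F187, F325, F331 and F368 and 25.2, 36.8, 15.1, 38.9 and 42.6 CPM in M351, M408, M9, M624 and M664. Only M9 overlapped the controls, and the log2 fold change was 1.102 (SE 0.36, edgeR adjusted p = 0.0881) with the pair and 0.88 (SE 0.38, edgeR adjusted p = 0.184) without it. In M9, 8.3 of its 19 reads were expected from genomic background. Mrps36, whose product belongs to the alpha-ketoglutarate dehydrogenase complex and not to the ribosome, had between 1 and 73 counts a tumor, with a log2 fold change of 0.89 (SE 0.67). Like Mrpl23, it passed the filter on low counts only with M624 and M664 included. Mrpl53 had 1 count in F187 and 0 in the other 8 tumors and was not tested. Of its 790 exon bases 88.0% are shared on the same strand with Gm42688, and 3 counts in a library, taken as the floor, would be 0.114 CPM in M624 and 2.39 CPM in M9.

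The subunits had close medians, and their difference was not tested. The 50 large-subunit genes tested had a median log2 fold change of 0.65 over the 9 tumors and 0.20 without the pair, and the 26 small-subunit genes 0.72 and 0.18. Members with a bacterial counterpart had medians of 0.69 and 0.20 (46 and 45 genes), and members found only in mitochondria 0.66 and 0.17 (30 genes). The 10 mitochondria-specific small-subunit genes, with Mrps22, Mrps31, Mrps26 and Mrps34 among them, had medians of 0.77 and 0.41 by edgeR, the highest of the 4 classes, but by limma-voom without the pair their median of 0.26 was below the 0.34 of the large-subunit genes with a bacterial counterpart. The summed counts of large-subunit genes were 1.98, 2.19, 2.31 and 2.24 times those of small-subunit genes in F187, F325, F331 and F368, and 2.14, 2.43, 1.83, 2.33 and 2.41 times in M351, M408, M9, M624 and M664, so that the groups overlapped.

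Per kilobase of exon the family spanned a wide range. The median over members was 7.55 RPKM (CPM per kilobase of exon, mean of 9 tumors), with 50 of 78 members between 5 and 20 RPKM, 8 above and 20 below. Highest were Mrpl34 at 37.7, Mrpl12 at 34.6 and Mrps21 at 33.8 RPKM, and lowest were Mrpl53 at 0.0556, Mrpl23 at 0.556 and Mrps36 at 1.099 RPKM. In the p53-driven tumors Mrps21 was highest with 34.5 RPKM, followed by Mrpl2 with 22.4, Mrpl41 with 22.3 and Mrpl34 with 22.2, and Mrpl12 stood lower with 16.9, whereas in the Myc-knockin tumors Mrpl34 with 50.1 and Mrpl12 with 48.9 RPKM were above Mrps21 with 33.2. Across the 77 members tested, Spearman's rho between exon length and the log2 fold change was -0.071 over the 9 tumors, and -0.327 between exon length and the log2 ratio of M624 and M664 to the other Myc-knockin tumors. For the log2 fold change without the pair it was 0.287, over 75 members. Genes of 1 library share its depth and content, so these values only describe the family.

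Exons of 33 members overlap those of another gene, by at least 10% of the exon bases in 17 members and at least 30% in 6. Besides Mrpl53 and Mrps34 these 6 are Mrps25 (69.8%, with Nr2c2), Mrpl19 (36.0%, with Gcfc2), Mrpl43 (33.4%, with Twnk) and Mrps18b (30.5%, with the antisense gene Gm16279). The partners of these 4 lie on the opposite strand, and the strand setting of the counting is not given in the sources used here. In Mrps25, which had a log2 fold change of 0.63 with the pair and -0.13 without, reads of the partner cannot be told apart if strand was not used.

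Promoter windows were found for 69 of the 78 members. Motifs were searched by their letters on both strands: the E-box CACGTG, to which Myc with its partner Max can bind, the NRF1 letters GCATGCGC, the ETS letters CCGGAAG, and the YY1 letters ATGGCGGC; the ETS and YY1 letters do not overlap in the windows printed. The E-box was in 5 of the 69 member windows, or 7.25%, against 11.6% of 10508 protein-coding genes tested and 8.09% of all 27025 genes with a window. The other motifs were more frequent among members than among the protein-coding genes tested. The ETS letters were in 37.7% against 19.0%, the YY1 letters in 17.4% against 5.40%, and the NRF1 letters in 11.6% against 5.89%. In the windows printed above, Mrps12 holds the ETS letters 2 bases into the transcript and Mrps11 the YY1 letters, on the other strand, 110 bases before its start. No letters of the 4 motifs are in the windows of Mrpl12 and Mrpl11. The 5 members with the E-box were Mrpl36, Mrpl20, Mrpl37, Mrpl2 and Mrps18c, with a median log2 fold change of 0.69 over the 9 tumors, beside 0.69 for the 63 members tested whose windows lack it, and -0.13 beside 0.20 without the pair. A match of letters describes the window and is not a binding site.

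Genes that build and serve the mitochondrial ribosome were described alongside. The 5 other ribosomal proteins of mitochondria, with other names (Dap3, Ptcd3, Chchd1, Aurkaip1 and Gadd45gip1) had a median log2 fold change of 0.71, and 0.35 without the pair, with 0 called by edgeR. Gadd45gip1 was at 1.63 (SE 0.50, edgeR adjusted p = 0.0725), and was the 1 called by DESeq2 over the 9 tumors (adjusted p = 0.0144, all genes: 10.1%). Aurkaip1 was at 0.40 (SE 0.55) with the pair, at -0.50 there by limma-voom, and at -0.87 (SE 0.31, edgeR adjusted p = 0.121) without it. It had 8.002, 11.2 and 15.9 CPM in M351, M408 and M9, where no control was under 17.3 CPM, and 45.7 and 61.0 CPM in M624 and M664. Of 28 assembly factors edgeR called 2 higher (all genes: 2.26%) and 0 lower. These were Mtg1, a GTPase of large-subunit assembly, and Noa1, a GTPase of small-subunit assembly. The list's median was 1.08, or 0.67 without the pair, where edgeR called 0. DESeq2 called 11 higher over the 9 tumors (all genes: 10.1%) and 2 without the pair (all genes: 5.97%). Limma-voom called 2 higher in each comparison (all genes: 4.32% and 6.70%). Without the pair both tools called Mtg1 and Noa1. Mtg1 had 2.77, 3.35, 3.98 and 2.19 CPM in F187, F325, F331 and F368 and 9.85, 6.23, 11.95, 14.6 and 11.5 CPM in M351, M408, M9, M624 and M664, and a log2 fold change of 1.81 (SE 0.40, edgeR adjusted p = 0.0338), or 1.61 (SE 0.42, edgeR adjusted p = 0.0630) without the pair. Noa1 had 14.7 to 22.2 CPM in the p53-driven tumors and 30.8, 34.4, 31.9, 77.7 and 42.8 CPM in M351, M408, M9, M624 and M664, with log2 fold changes of 1.29 (SE 0.34, edgeR adjusted p = 0.0496) and, without the pair, 0.92 (SE 0.23, edgeR adjusted p = 0.0592). In both genes every Myc-knockin tumor was above every p53-driven one. At the ends of the list were Rpusd3, a pseudouridine synthase, with 24.0 and 26.2 CPM in M624 and M664 and at most 1.98 CPM in the other 7 tumors, and Tfb1m, the methyltransferase of the small ribosomal RNA, with a log2 fold change of -0.11 (SE 0.41). Rpusd3 passed the filter on low counts only with M624 and M664 included, so its place in the list is given as a description.

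Of 17 mitochondrial tRNA synthetases, 16 of them tested without the pair, 1 was called higher by edgeR in both comparisons (all genes: 2.26%, and 1.80% without the pair), Yars2, which charges tyrosine tRNA. DESeq2 called 7 higher over the 9 tumors (all genes: 10.1%) and 1 without the pair (all genes: 5.97%), and limma-voom 1 and 3 (all genes: 4.32% and 6.70%). Yars2 had 10.2 to 11.6 CPM in the p53-driven tumors and 22.2, 21.8, 20.7, 35.7 and 22.2 CPM in M351, M408, M9, M624 and M664, a log2 fold change of 1.18 (SE 0.28, edgeR adjusted p = 0.0386) and 1.05 (SE 0.21, edgeR adjusted p = 0.0394) without the pair. The groups were separate, with M624 above the other 4 Myc-knockin tumors. The list had a median of 1.06, and 0.71 without the pair, with Lars2 at the top (2.01, SE 0.67; 423 and 651 CPM in M624 and M664) and Rars2 at the bottom (0.27, SE 0.23). Of 11 tested genes of mitochondrial DNA transcription and replication, Twnk, the replicative helicase, was the 1 called higher by edgeR (all genes: 2.26%), as it was among 10 without the pair (all genes: 1.80%), with log2 fold changes of 1.51 (SE 0.31, edgeR adjusted p = 0.0288) and 1.29 (SE 0.28, edgeR adjusted p = 0.0418). DESeq2 called 4 and 1 of these genes higher (all genes: 10.1% and 5.97%), and limma-voom 1 in each comparison (all genes: 4.32% and 6.70%). Twnk shares exon bases with Mrpl43, whose own log2 fold change was 0.21 (SE 0.41). The list's median was 0.94, and 0.51 without the pair, and Mterf2 was lowest at -0.28 (SE 0.59).

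The 15 translation factors of mitochondria had a median of 0.42, and 0.13 without the pair, and edgeR and limma-voom called 0 in either comparison. DESeq2 called 1 higher over the 9 tumors, Tufm (adjusted p = 0.033, all genes: 10.1%), and 0 without the pair. The elongation factor Tufm was at the top with 2.19 (SE 0.79), which rested on 40.7 and 22.9 CPM in M624 and M664 against 1.59 to 5.54 CPM in the other 7 tumors, and the initiation factor Mtif3 was at the bottom with -0.29 (SE 0.33). The 10 regulators of mitochondrial biogenesis had medians of 0.39 and 0.37 and 0 called by edgeR, from Ppargc1a at 1.92 (SE 1.02) to Ppargc1b at -0.99 (SE 0.38). DESeq2 called 1 higher in each comparison (all genes: 10.1%, and 5.97% without the pair), and limma-voom 0 and 1 (all genes: 4.32% and 6.70%). Without the pair Ppargc1a was at 2.64 (SE 0.90), with an adjusted p of 0.036 by DESeq2 and 0.032 by limma-voom. The 15 genes taken as a measure of mitochondrial mass had medians of 0.98 and 0.50. Of these Hspd1, the matrix chaperonin, was the 1 called higher by edgeR over the 9 tumors (1.85, SE 0.44, edgeR adjusted p = 0.0411), where 2.26% of all genes were. There DESeq2 called 7 higher (all genes: 10.1%) and limma-voom 1 (all genes: 4.32%). Without the pair edgeR called 0, and DESeq2 and limma-voom each called 1 higher (all genes: 5.97% and 6.70%). Hspd1 was then at 1.34 (SE 0.36), with an adjusted p of 0.0033 by DESeq2 and 0.039 by limma-voom. Timm50, of the import machinery of the inner membrane, was highest at 2.11 (SE 0.60) and Immt, of the crista junctions, lowest at -0.19 (SE 0.33). The 13 mRNAs and 2 ribosomal RNAs of mitochondrial DNA are listed at 0 in all 9 tumors, as are all 37 genes whose symbols begin with mt-, so that the products of the mitochondrial ribosome's own templates could not be set beside its proteins.

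**Figure D5:**
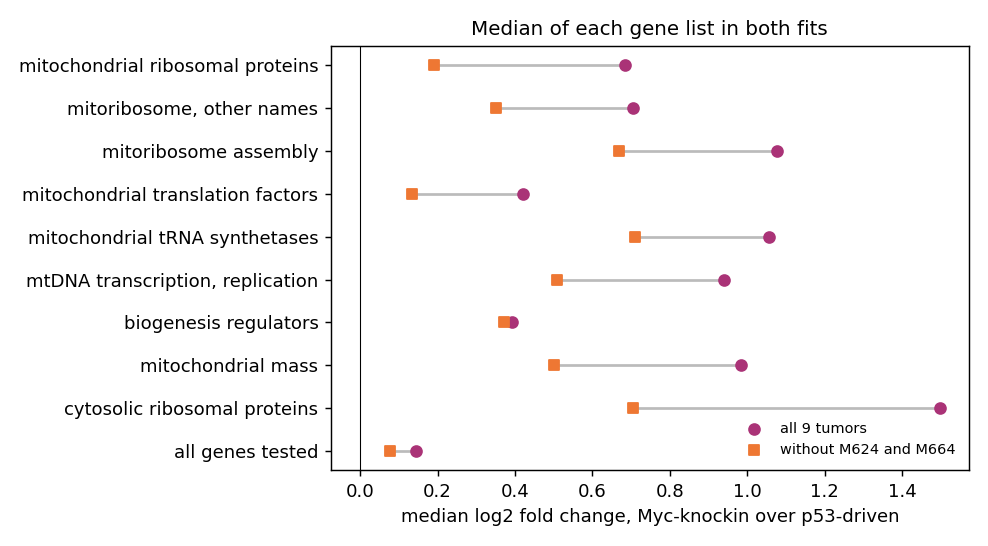
Median log2 fold change of Myc-knockin over p53-driven tumors for each gene list, over all 9 tumors (circles) and without M624 and M664 (squares). The mitochondrial ribosomal protein genes move from 0.69 to 0.19, the cytosolic ones from 1.497 to 0.70, and all genes tested from 0.14 to 0.08.

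The cytosolic ribosomal protein genes, which encode the proteins of the ribosome that serves the rest of the cell, had larger log2 fold changes, as the medians show; the difference between the families was not tested. Their summed level was 3535, 5248, 5540 and 4770 CPM in F187, F325, F331 and F368 and 8779, 9374, 4404, 25145 and 26788 CPM in M351, M408, M9, M624 and M664. Of 78 tested, 4 were called higher (all genes: 2.26%) and 0 lower by edgeR, while DESeq2 called 53 higher (all genes: 10.1%) and limma-voom 9 (all genes: 4.32%). By edgeR the family had a median log2 fold change of 1.497, and 2 of 74 were called higher without the pair (all genes: 1.80%), with a median of 0.70. There DESeq2 called 14 of the 74 higher (all genes: 5.97%) and limma-voom 10 (all genes: 6.70%). The counts of the mitochondrial family were 24.7% to 36.5% of those of the cytosolic family in the p53-driven tumors. They were 18.6%, 16.6%, 26.4%, 10.97% and 10.86% of them in M351, M408, M9, M624 and M664. M9 again overlapped the controls, and M624 and M664 were lowest.

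Markers of the cells in these tumors moved with the groups as well, and their part in the values above was not tested. Col1a1, the most abundant of 12 osteoblast markers, had 2098 CPM or more in every tumor. The summed osteoblast markers were 66159, 137482, 134586 and 141854 CPM in F187, F325, F331 and F368 and 16636, 10101, 19388, 3690 and 42209 CPM in M351, M408, M9, M624 and M664, and 1 of the 12 was called lower (all genes: 3.00%). Of 10 osteoclast markers, which sum to 2934 CPM or more in the p53-driven and to 437, 339, 175, 368.1 and 2685 CPM in those 5 Myc-knockin tumors with Mmp9 most abundant, 7 were called lower. Of 12 macrophage markers, with Csf1r most abundant, 3 were called lower, and their sums were 1023 to 1743 CPM in the p53-driven tumors and 336, 625, 371, 295 and 1054 CPM. Of 8 proliferation markers, with Mki67 most abundant, edgeR called 2 higher (all genes: 2.26%), Ccnb1 and Aurkb, and 0 without the pair. DESeq2 called 5 higher over the 9 tumors (all genes: 10.1%) and 4 without the pair (all genes: 5.97%), and limma-voom 3 and 2 (all genes: 4.32% and 6.70%). The sums of these markers were 519, 678, 518 and 395 CPM in F187, F325, F331 and F368 and 827, 1017, 583, 1189 and 526 CPM in M351, M408, M9, M624 and M664. On these sums M351, M408 and M624 were above every p53-driven tumor, and M9 and M664 lay within the p53-driven range. How the proliferation markers relate to the level of the mitochondrial ribosomal protein genes was not tested. Muscle markers were 6270 CPM in F325 and 2949 CPM in M408 and at most 704 CPM elsewhere, with 0 of 11 tested genes called. The 6 endothelial markers had sums of 328 to 454 CPM in the p53-driven tumors and 81.0 to 408.4 CPM in the others, with 0 called by edgeR. Without the pair DESeq2 called 1 of them higher and 1 lower (all genes: 854 and 1190 of 14308). Limma-voom called 1 higher and 2 lower there (all genes: 958 and 1050 of 14308). The summed red cell markers, with Hba-a1 most abundant, stood at 217 CPM for M624, at 784 CPM for M664 and at 46.9 CPM or less in the other 7; Hba-a1 itself is at 0 in those 7 tumors. Bglap, the osteocalcin of mature osteoblasts, is at 0 in M408 and at 0.038 CPM in M624, and Dcstamp, the fusion receptor of osteoclasts, is at 0 in M408; no marker is at 0 in all 9 tumors.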

How the data were processed

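RNA from 4 p53-driven and 5 Myc-knockin osteosarcoma tumors was sequenced. The paper describes mRNA enrichment with oligo-dT and a stranded total RNA kit, and names no difference between tumors. Given the levels of Rn7sk, whether this holds for every library is uncertain. The submitters' processing notes name Trim Galore, STAR, featureCounts and the build mm10, with no versions, and the authors deposited raw counts per gene, not normalized. Whether featureCounts used strand, and what it did with multimapping reads, is not given in the sources used here.

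Counts were analysed in R 4.3.3 with edgeR 4.0.16 (TMM, filterByExpr with a minimum count of 10, glmQLFit and glmQLFTest), adjusted by the Benjamini-Hochberg method over all genes tested. Alternatives were DESeq2 1.42.0, limma-voom of limma 3.58.1 with a quality weight for each library, other scalings, filters and thresholds, subtraction of genomic background (from 1822 chemosensory receptor genes), and each tumor left out. Every value given for limma-voom used these weights. The edgeR fits of both comparisons were tested on simulated data, in which they recovered the direction and size of most changes. Neither fit called a gene given a log2 change of 1. Of 100 genes given a log2 change of 2, 4 were called over the 9 tumors and 29 without M624 and M664. A lack of calls therefore does not show a lack of change, and least of all over the 9 tumors. SE is the log2 fold change divided by the root of F. Log2 CPM used a prior count of 2. Exon lengths are from GENCODE M21 on the same genome, and promoter windows from RefSeq. Depth ranged from 2716322 to 17073285 counts. The floors (3 counts) cover counting error only, whereas SE and SD include the spread between tumors. Every column of values was mapped to a group; 0 were left unused.

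The members and lists were chosen with earlier results of these data known. Named were the 6 members with the largest and smallest log2 fold change among those with a mean of at least 10 CPM, the 5 that differed most between comparisons, the 3 highest and lowest by RPKM, the Mrps18 paralogs, Mrps30, Mrps36, and of each pathway list the largest, the smallest and any gene called; Mrpl46, Mrps25, Mrps31, Mrps22, Mrpl38, Mrps9, Mrpl48 and Mrpl23-ps1 were chosen after their values were seen.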

Additional observations from a re-analysis of the deposited data

Results flagged for a closer look

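In 4 of 84 groups of tumors tested, the highest value lay far from the others of its group, by Dixon's criterion, which flags about 1 in 20 groups by chance. Mrpl53 had 0.395 CPM in F187, which was 1 count, and 0 in the other p53-driven tumors. Noa1 had 77.7 CPM in M624 and between 30.8 and 42.8 CPM in the 4 others with the Myc allele. Yars2 had 35.7 CPM in M624 and between 20.7 and 22.2 CPM in those 4. Hspd1 had 111 CPM in F331 and between 76.9 and 79.99 CPM in the 3 others with p53 alone.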

How the results depend on the processing

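No member was called lower under any alternative. Over all 9 tumors the number of members called higher, 0 by edgeR with TMM, was 3 (all genes: 4.07%) with upper-quartile normalization, 6 of 59 tested (all genes: 8.46%) among genes that reached 10 counts in each tumor, 12 with DESeq2 (10.1%), 2 with limma-voom (4.32%), 1 (4.29%) after subtraction of genomic background, 8 (7.82%) at an adjusted p under 0.1, 24 (11%) by library size alone without the satellite genes, a scaling chosen after seeing the data that moved the median of all genes to 0.63, and 38 (15.7%) without the libraries rich in satellite counts. With single tumors left out it ranged from 0 to 8, with 8 reached without M9 and 1 without M408. Mrpl23, which passed the main filter only with the pair included, was called by DESeq2, by limma-voom and at an adjusted p under 0.1. It was also called by library size alone without the satellite genes, and without the libraries rich in satellite counts. Without the pair the number was 2 of 59 (all genes: 5.77%) among genes that reached 10 counts in each tumor, 2 with DESeq2 (5.97%), 2 with limma-voom (6.70%), 2 (5.57%) at an adjusted p under 0.1 and 9 (9.03%) by library size alone without the satellite genes. The members' median log2 fold change over all 9 tumors, 0.69, became 1.17 without the libraries rich in satellite counts and 0.38 with limma-voom (all genes: -0.038), where 64 of 77 members were above 0. Without the pair it was 0.19 and became 0.38 with upper-quartile normalization, -0.40 by library size alone, where the median of all genes was -0.55, 0.71 by library size alone without the satellite genes, where it was 0.70, 0.35 after subtraction of genomic background (all genes: 0.008), 0.126 with TMM after removal of the satellite genes (all genes: 0.127), and -0.18 with all genes of at least 1 count (all genes: 1.30), and it ranged from -0.033 (without M408) to 0.30 (without F331) with single tumors left out. Of 652 log2 fold changes of the named members recomputed, 60 were on the other side of 0, 17 of them with 1 tumor left out, and 34 passed the test. None of the members on the other side of 0 had been called. With upper-quartile normalization these were Mrps21 0.024, Mrpl42 0.034 and Mrps18c 0.01 over all 9 tumors, and Mrps26 0.038 and Mrps18c 0.10 without the pair. By library size alone without the satellite genes these were Mrps21 0.36, Mrpl42 0.37, Mrps18c 0.33, Mrpl35 0.29, Mrpl41 0.12 and Mrps18a 0.056 over all 9 tumors, and Mrps26 0.37, Mrps21 0.20, Mrps18c 0.42, Mrpl35 0.29, Mrpl41 0.11 and Mrpl4 0.32 without the pair. Among genes that reached 10 counts in each tumor these were Mrps21 0.059, Mrpl42 0.051 and Mrps18c 0.043 over all 9 tumors, and Mrps18c 0.047 without the pair. With limma-voom these were Mrpl42 0.019, Mrps34 -0.11 and Mrps28 -0.039 over all 9 tumors. After subtraction of genomic background these were Mrps21 0.059, Mrpl42 0.011 and Mrps18c 0.025 over all 9 tumors, and Mrps18c 0.14 without the pair. Without the libraries rich in satellite counts these were Mrps21 0.31, Mrps18c 0.11, Mrpl35 0.18 and Mrps18a 0.077 over all 9 tumors. By library size alone these were Mrpl12 -0.34, Mrpl11 -0.008, Mrpl34 -0.40, Mrpl42 -0.53 and Mrps18b -0.13 without the pair. With all genes of at least 1 count these were Mrpl12 -0.086, Mrpl34 -0.28 and Mrpl42 -0.36 without the pair. With TMM after removal of the satellite genes these were Mrpl34 -0.003 and Mrpl42 -0.06 without the pair. With nuclear protein-coding genes only these were Mrpl42 -0.026 without the pair. With single tumors left out they ranged for Mrps21 from -0.13 to 0.11, Mrpl42 from -0.19 to 0.15, Mrps18c from -0.14 to 0.067 and Mrps34 from -0.027 to 1.05 over all 9 tumors, and for Mrpl42 from -0.42 to 0.22, Mrpl34 from -0.50 to 0.22, Mrpl11 from -0.003 to 0.64 and Mrps18b from -0.079 to 0.42 without the pair. The causes of these moves were not tested. No paired analysis was possible because the columns of the table carry no replicate numbers. The comparison without the satellite-rich libraries could not be made without the pair, which leaves no Myc-knockin tumor, and a threshold on adjusted p alone gave 0 calls in both comparisons. Counts in M9, M351 and F187 limit the precision of every member.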
